A study of Arabidopsis thaliana with 12 samples.

Results

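The comparison is of abscisic acid (ABA) given alone with its solvent, in whole seedlings of Arabidopsis thaliana ecotype Col-0, 12 days old and grown on plates before they were moved to multi-well plates. Its members are the 3 arrays titled ABA and the 3 titled control, 6 of the 12 arrays of the series, chosen by those titles alone. ABA seedlings had 10 µM ABA for 6 h, and control seedlings had DMSO diluted 1 in 5000 in water for a time that their label does not give. The other 6 arrays, used here for the same ABA contrast in the presence of a second compound, are 3 of seedlings given 30 µM of the synthetic furan DFPM 30 min before 10 µM ABA, with a time of 6 h, and 3 of seedlings given 30 µM DFPM alone. All 4 groups are of 1 ecotype and 1 age, and the labels name no mutant or transgene.

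ABA is the hormone that plants accumulate when water is short. It binds soluble receptors that inhibit type 2C protein phosphatases, which releases SnRK2 kinases to phosphorylate ion channels of guard cells and basic leucine zipper transcription factors of the ABF group. In seedlings the response is known for protective proteins made against drying, for closed stomata and for slower growth.

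RNA was hybridised to Affymetrix ATH1 arrays, on which a probe set is a group of short probes for 1 transcript, and the values are deposited log2 levels. A change is the mean of the ABA arrays minus that of the control arrays on the log2 scale, ± its standard error, so that 1 is a doubling, and n = 3 arrays per group throughout. A probe set was called higher or lower at an adjusted p under 0.05 from limma over all 14401 tested probe sets, and the lists of genes described below hold 834 of these. Members and lists were chosen with earlier results of these data known, so changes in 1 direction within a list may partly follow from that choice. Of all tested probe sets 28.9% were called, 14.6% higher and 14.3% lower, so a list of 10 with 1 or 2 calls each way is near this background. The levels of 3 arrays are given in the order of their numbers 1, 2 and 3, and an array is named by group and number, as ABA 1. Arrays of one number deviated together in every group, and the arrays numbered 3 stood apart from the others: without them 3717 probe sets were called higher and 4647 lower, against 501 and 209 without those numbered 1 and 529 and 196 without those numbered 2. With the array number as a block in the fit, 22.1% were called higher and 26.4% lower, and blocked counts or adjusted p-values that differ in their calls stand beside the lists and genes described. The number of arrays, and not a read depth, limits the precision. Within every group the arrays numbered 1 and 2 were closest to each other (in ABA r = 0.99, against 0.92 for either with number 3). Between groups, too, arrays numbered 1 deviated together with those numbered 2, so the pairing behind the block rests mainly on number 3. Whether numbers 1 and 2 are separate replicates, or the 3 samples of a group were grown and treated separately, is not in the labels. The p-values measure the spread between these RNA samples, which may be technical. Whole seedlings mix many cell types, and fewer cells of a type and less RNA per cell cannot be told apart.

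Probes near the 3′ and the 5′ end of control transcripts differed with the treatment. The ubiquitin 3′ minus 5′ difference was 0.61 to 0.82 in the ABA arrays and 1.03 to 1.29 in the control arrays, and that for actin was 4.56 to 4.63 and 4.86 to 5.30, while that for GAPDH overlapped (1.24 to 1.32 in ABA, 1.09 to 1.31 in control). The part of RNA integrity in the results was not tested. Of the marker lists, mesophyll had 2 of 6 symbols on the array (RCA and LHCB4.1), with summed linear levels of 8393 to 14697 in ABA and 15900 to 22779 in control. Root hair had 2 of 9 (EXPA7 and EXPA18), at 125 to 188 in ABA and 168 to 196 in control, and guard cell 2 of 8 (BLUS1, listed as AT4G14480, and FAMA), at 31.3 to 175 in ABA and 65.2 to 269 in control. None of these 6 probe sets was called, though FAMA, listed as FMA, was with the block (adjusted p = 0.0443). The pollen marker MGH3 lay at 2.14 on every array, the bottom of the scale. No phloem, xylem, epidermis or seed marker had a named probe set here. The part of cell type shares in the results was not tested.

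The sizes of the called changes were not symmetric. Of the 2099 probe sets called higher, 804 changed by at least 2 on the log2 scale and 130 by at least 5, and of the 2066 called lower 455 and 27 did so. The median change was 1.61 among those called higher and -1.30 among those called lower, and the median over all tested probe sets was -0.09. In 48 of those called higher every control array lay under log2 4 and every ABA array at 8 or more, a pattern close to off and on, and the opposite held for 2 of those called lower. The groups of 3 did not overlap in 46.8% of all tested probe sets, 21.1% with ABA above and 25.7% with ABA below. The 20 named genes among the 48 include LEA18, LEA4-5 and COR15A, described next, and PUB19, BGLU24 and SAG29 further on.

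The 10 highest changes over all probe sets that name 1 gene ran from 7.94 to 11.42 and the 10 lowest from -6.88 to -5.40, and all 20 had the same call with any 1 array left out. AT3G02480, the highest, was at 14.85, 14.58 and 14.80 in the ABA arrays, against 3.56, 3.46 and 2.97 in the control arrays. The 3 ABA arrays lay close together near the top of the scale, and the change was 11.42 ± 0.18 (adjusted p = 2.64e-10). Below it came SAG29, COR15A (9.60), AT3G17520 (9.40), LEA4-5 (9.29), AT2G41190 (8.31), EXPA16, AT1G09500 (8.16), AT3G15670 (8.07) and AT1G49450. AT5G48430, the lowest, was at 4.32, 4.65 and 2.15 in the ABA arrays, against 11.85, 10.92 and 8.98 in the control arrays. Its control arrays spread over almost 3 log2 units and all lay above the ABA arrays, with a change of -6.88 ± 0.80 (adjusted p = 1.93e-04). It was followed by AT2G17740 (-6.75), UGT72E1, AT3G23550 (-6.14), AT1G66940 (-6.04), AT4G21870 (-6.00), Prx37, AT5G62360 (-5.54), AT2G43140 (-5.48) and AT3G10120. Roles of those named by a locus tag alone are not given here, which does not make them unknown. The lists below may leave out such genes of their families. SAG29, EXPA16, UGT72E1 and Prx37 are described with their families.

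Most of the listed genes for proteins that protect cells against drying were called higher after ABA. Of 10 tested genes for late embryogenesis abundant (LEA) proteins and dehydrins, hydrophilic proteins that accumulate in seeds and in drying tissue, 7 were called higher and none lower, with a median change of 3.39. The 7 had the same call with any 1 array left out. LEA18 was at 10.93, 10.55 and 9.08 in the ABA arrays, against 2.16, 2.71 and 2.15 in the control arrays. All 3 ABA arrays lay far above the control arrays, whose values are near the floor of the scale, and the change was 7.85 ± 0.64 (adjusted p = 2.12e-05). The dehydrin LTI30 was at 14.57, 14.47 and 15.01 in the ABA arrays, against 10.21, 10.09 and 12.29 in the control arrays. Here the control arrays were themselves well measured and the groups did not overlap, with a change of 3.82 ± 0.53 (adjusted p = 6.23e-04). AtLEA4-1 rose by 2.95 ± 0.38 (adjusted p = 3.70e-04), and the chloroplast LEA gene COR15B and the dehydrin gene COR47 by 3.94 and 2.56. The remaining 3 were not called: LEA26, listed as AT2G44060, had a difference of 0.26 ± 0.24 (adjusted p = 0.458), the dehydrin HIRD11, listed as AT1G54410, of 0.10 ± 0.25 (adjusted p = 0.796), and LEA27, listed as AT2G46140, of -0.95 ± 0.75 (adjusted p = 0.384, or 0.0154 with the block).

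The list of 16 genes named for their induction by drought, salt, cold or heat had 5 called higher and none lower, or 9 higher and 1 lower with the block. HSA32, needed for acquired heat tolerance, was at 7.16, 7.26 and 6.81 in the ABA arrays, against 4.51, 4.72 and 3.48 in the control arrays. The ABA values lie within a narrow range above all control values, and the change was 2.84 ± 0.45 (adjusted p = 0.00132). The lipocalin TIL rose by 1.41 ± 0.38 (adjusted p = 0.0212) and RD2 by 1.6 ± 0.23 (adjusted p = 6.61e-04). The cold-regulated gene COR27 had a difference of 0.97 ± 0.65 (adjusted p = 0.299, or 0.0115 with the block), and OSM34, an osmotin, of -2.10 ± 0.73 (adjusted p = 0.0551, or 0.0013 with the block). The call of TIL was lost without ABA 1 or 3 or control 1 or 2 (adjusted p 0.0538 to 0.0806). The genes named for induction by drought, salt, cold or heat called higher numbered 3 without ABA 1 or control 2.

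Of 19 chaperones 3 were called higher and 4 lower (15.8% and 21.1%), beside 14.6% and 14.3% of all tested probe sets. The small heat-shock protein ATHSP22.0 of the endoplasmic reticulum and HSA32 account for 2 of the higher calls, and Hop3, a co-chaperone that links Hsp70 and Hsp90, rose by 2.06 ± 0.68 (adjusted p = 0.0438). ATERDJ3B, an Hsp70 co-chaperone of the endoplasmic reticulum, was at 9.03, 9.15 and 8.87 in the ABA arrays, against 10.46, 10.53 and 10.24 in the control arrays. Those groups did not overlap, and the change was -1.39 ± 0.25 (adjusted p = 0.0029). CRT1b, a calreticulin of the same compartment, fell by 1.55 (adjusted p = 0.00176), Cpn60beta2, a subunit of the chloroplast chaperonin, changed by -1.63 ± 0.42 (adjusted p = 0.0165) and Hop1 by -0.65 ± 0.18 (adjusted p = 0.0222). With the block, 7 were called lower. The call of Hop3 was lost without ABA 1 or 2 or any control array (adjusted p 0.0581 to 0.151), that of Cpn60beta2 without ABA 1 or control 2 or 3 (0.0504 to 0.067), and that of Hop1 without ABA 1 or 2 or control 1 or 3 (0.05 to 0.0889). The chaperones and co-chaperones called lower numbered 2 without ABA 1.

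Among 8 aldehyde dehydrogenases 1 was called higher (2 with the block) and 2 lower. ALDH7B4, which removes toxic aldehydes under stress, was at 13.85, 13.86 and 13.50 in the ABA arrays, against 12.18, 12.02 and 11.12 in the control arrays. Its groups were separate, with a change of 1.96 ± 0.33 (adjusted p = 0.00192). ALDH10A8 changed by -0.64 ± 0.18 (adjusted p = 0.0237) and ALDH22A1 by -0.74 ± 0.24 (adjusted p = 0.0414). In the list of 10 methionine sulfoxide reductases and glyoxalases, enzymes that repair oxidised proteins and clear methylglyoxal, 2 were called each way (with the block, 4 lower), GLX2-5 (0.98 ± 0.17, adjusted p = 0.00195) and MSRB3 (0.70 ± 0.22, adjusted p = 0.0354) higher, MSRA5 (-0.55 ± 0.16, adjusted p = 0.0265) and YLS5 (-1.75 ± 0.49, adjusted p = 0.0231) lower. The call of ALDH10A8 was lost without ABA 1 or 2 or control 1 or 2 (adjusted p 0.0526 to 0.104), that of ALDH22A1 without any ABA array or control 2 or 3 (0.0523 to 0.136), that of MSRB3 without any ABA array or control 1 or 2 (0.0606 to 0.131), and that of MSRA5 without any ABA array or control 2 or 3 (0.0551 to 0.0903). The call of YLS5 was lost without ABA 1 or 2 or control 2 or 3 (adjusted p 0.0547 to 0.0943).

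Sugar export and storage genes changed unevenly. SWEET proteins let sugars pass through a membrane along their gradient, and of 11 tested SWEET and other sugar transporter genes 5 were called higher and 1 lower. SWEET4 was at 7.88, 7.69 and 8.73 in the ABA arrays, against 2.53, 2.43 and 3.13 in the control arrays. The ABA arrays lay above every control array, and the change was 5.4 ± 0.36 (adjusted p = 5.83e-06). SWEET2, which sits in the vacuole membrane, was at 9.72, 9.43 and 9.12 in the ABA arrays, against 7.64, 6.70 and 4.25 in the control arrays. The groups did not overlap, with control 3 the lowest of all, and the change of 3.23 ± 0.68 (adjusted p = 0.00644) kept its call with any 1 array left out, as did those of SWEET4, SAG29, TMT2 and SFP1. SAG29, a SWEET gene of senescing leaves also known as SWEET15, had the highest change of the list, 9.68 ± 0.51 (adjusted p = 1.19e-06), and TMT2, a sugar importer of the vacuole, rose by 1.97 ± 0.32 (adjusted p = 0.00147) and the monosaccharide transporter gene SFP1 by 1.90 ± 0.23 (adjusted p = 2.50e-04). SWEET16, also of the vacuole membrane, was at 6.13, 6.53 and 3.86 in the ABA arrays, against 7.96, 7.80 and 6.86 in the control arrays. ABA 3 was the lowest of the ABA arrays, and all of them lay below every control array, and the change was -2.03 ± 0.64 (adjusted p = 0.0386). SWEET17, SWEET1, TMT1, SWEET11 and SWEET10 were not called (changes of 0.45, 0.04, 0.03, -0.99 and -1.03). The call of SWEET16 was lost without ABA 1 or 3 or control 1 or 2 (adjusted p 0.0558 to 0.111).

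The plot of levels on each array shows 12 genes of different functions, with the arrays of each number marked.

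**Figure D1:**
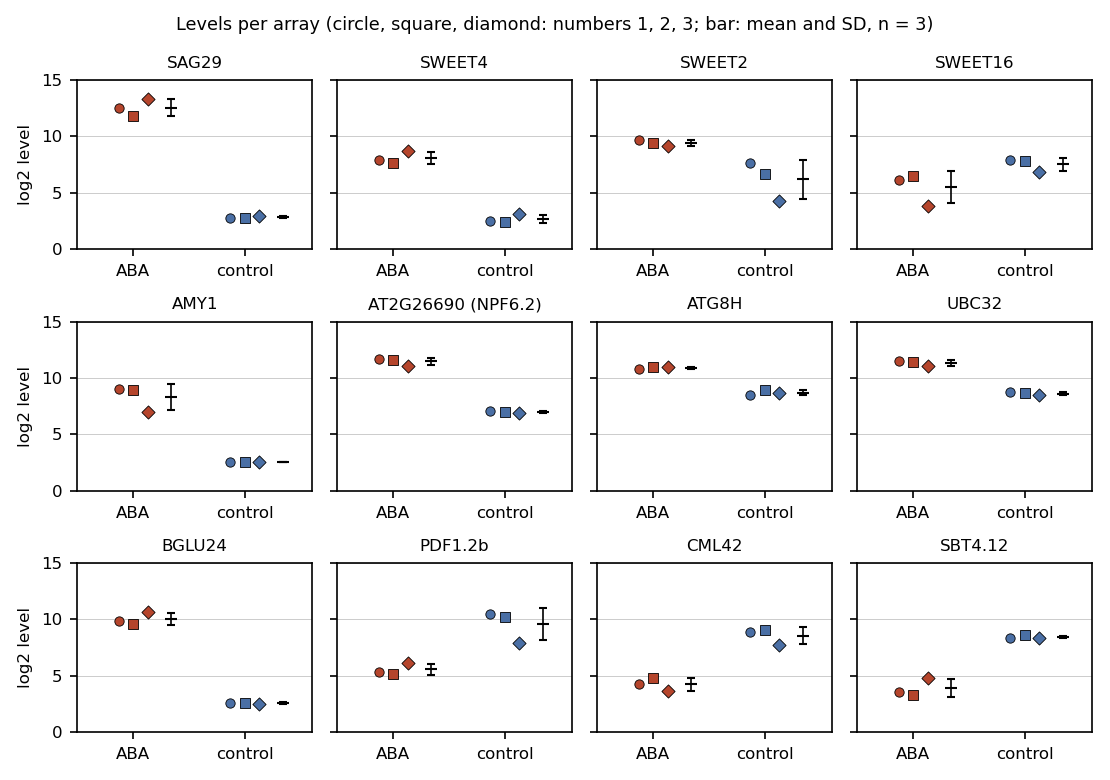
Levels (log2, vertical axis) on each of the 3 ABA arrays (left in each panel) and the 3 control arrays (right) for 12 genes; circles, squares and diamonds are the arrays numbered 1, 2 and 3, and bars give the mean ± SD (n = 3). In every panel the ABA and control arrays do not overlap, as for 46.8% of all tested probe sets and as the choice of named genes favours. ABA is higher for SAG29, SWEET4, SWEET2, AMY1, AT2G26690, ATG8H, UBC32 and BGLU24 and lower for SWEET16, PDF1.2b, CML42 and SBT4.12.

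One gene of starch breakdown stood out among enzymes that were otherwise not called. Of 12 starch and sucrose enzymes AMY1, an alpha-amylase that cuts starch, was called, at 8.99, 8.97 and 6.97 in the ABA arrays, against 2.57, 2.57 and 2.57 in the control arrays. The control arrays shared 1 value near the floor, ABA 3 was the lowest of the ABA arrays, and the change was 5.74 ± 1.09 (adjusted p = 0.00367). APL3, a large subunit of the enzyme that makes ADP-glucose for starch, had a difference of 2.33 ± 0.92 (adjusted p = 0.0825, or 0.00588 with the block), the glucan-disproportionating enzyme DPE1 of -1.28 ± 0.53 (adjusted p = 0.0962, or 0.00736 with the block) and the invertase-like cwINV6 of -1.26 ± 1.15 (adjusted p = 0.453, or 0.00265 with the block). With the block, 2 were called higher and 2 lower, and without control 3 the count called higher was 3. In glycolysis and glycerol phosphate metabolism 2 of 8 were called higher and 1 lower (3 with the block). GPDHC1, a cytosolic glycerol-3-phosphate dehydrogenase, was at 10.14, 10.11 and 9.85 in the ABA arrays, against 6.47, 6.92 and 7.12 in the control arrays. The groups were apart, with a change of 3.19 ± 0.32 (adjusted p = 7.44e-05). The gene listed as PGM, annotated as a phosphoglycerate mutase (AT1G78050), rose by 2.24 ± 0.38 (adjusted p = 0.00188), and GPDHp changed by -0.77 ± 0.20 (adjusted p = 0.0171). The call of GPDHp was lost without ABA 1 or 2 (adjusted p 0.059 to 0.0778).

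Enzymes that break down branched-chain amino acids and lysine lay above zero without exception. All 9 changes were positive, from 0.18 to 2.98 with a median of 1.15, and the median within the arrays numbered 1, 2 and 3 was 0.80, 1.1 and 1.22. Only 3 were called higher, or 8 with the block. ETFALPHA, a subunit of the flavoprotein that passes electrons from these breakdown steps to the respiratory chain, was at 9.55, 9.61 and 9.29 in the ABA arrays, against 8.36, 8.35 and 8.11 in the control arrays. No ABA array reached down to the control range, and the change was 1.21 ± 0.19 (adjusted p = 0.00122). Its partner ETFBETA rose by 1.04 ± 0.33 (adjusted p = 0.0408), and the lysine-degrading enzyme LKR/SDH, listed as AT4G33150, by 2.98 ± 0.95 (adjusted p = 0.04). The others were not called without the block: D2HGDH had a difference of 1.27 ± 0.48 (adjusted p = 0.0735, or 8.25e-05 with the block), the methylcrotonyl-CoA carboxylase subunit MCCB of 1.26 ± 1.16 (adjusted p = 0.459, or 0.00281 with the block), its partner MCCA of 0.97 ± 1.40 (adjusted p = 0.648, or 0.00551 with the block), isovaleryl-CoA dehydrogenase IVD of 1.15 ± 1.01 (adjusted p = 0.43, or 0.0162 with the block) and ALDH6B2 of 0.54 ± 0.85 (adjusted p = 0.678, or 0.0446 with the block). ETFQO had a difference of 0.18 ± 0.91 (adjusted p = 0.906). The call of ETFBETA was lost without ABA 1 or 2 or control 2 or 3 (adjusted p 0.0649 to 0.136), and that of AT4G33150 without any ABA array or any control array (0.0533 to 0.118). The branched-chain amino acid and lysine breakdown genes called higher numbered 1 without ABA 1 or 2 or control 2 or 3.

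In a list of other steps of amino acid and nucleotide recycling 1 of 15 was called higher (2 with the block) and 4 lower (5 with the block). DELTA-OAT, the mitochondrial ornithine aminotransferase, rose by 1.63 ± 0.38 (adjusted p = 0.0103). OTC, which uses ornithine to make citrulline, was at 7.83, 8.0 and 8.86 in the ABA arrays, against 9.67, 9.90 and 10.13 in the control arrays. Its groups did not overlap, and the change was -1.67 ± 0.29 (adjusted p = 0.00216). The uracil-salvaging enzyme UPP changed by -1.34 ± 0.30 (adjusted p = 0.00887), urease (URE) by -1.27 ± 0.41 (adjusted p = 0.0426) and the acylamino-acid-releasing enzyme AARE by -0.88 ± 0.27 (adjusted p = 0.0357). The call of URE was lost without ABA 1 or 2 or any control array (adjusted p 0.0594 to 0.146), and that of AARE without any ABA array or any control array (0.0502 to 0.103). The other amino acid and nucleotide recycling genes called lower numbered 2 without ABA 1 or 2 or control 1 or 2. Of 15 citrate lyase, isocitrate and glyoxylate enzymes and lipases 2 were called higher and 1 lower, or 4 each way with the block. The oil-body lipase SDP1 rose by 1.07, the ATP-citrate lyase subunit ACLA-1 by 0.55, and the cytosolic isocitrate dehydrogenase cICDH fell by 0.73, each call being lost in 4 of the 6 fits that left out 1 array.

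Transporters for nitrogen compounds held some of the larger changes outside the protective proteins. Of 10 tested carnitine, NRT1/PTR and nitrate transporters 5 were called higher and 1 lower, and the median change was 0.92. NPF6.4, listed as AT3G21670, was at 8.05, 7.41 and 7.4 in the ABA arrays, against 2.29, 2.26 and 3.77 in the control arrays. NPF6.2, listed as AT2G26690, was at 11.71, 11.61 and 11.08 in the ABA arrays, against 7.12, 6.97 and 6.88 in the control arrays. Both had ABA arrays far above the control arrays, with changes of 4.84 ± 0.84 (adjusted p = 0.00222) and 4.48 ± 0.55 (adjusted p = 2.59e-04). NPF4.3, listed as AT1G59740, rose by 2.19 ± 0.29 (adjusted p = 4.16e-04), the glucosinolate transporter GTR1 by 1.05 ± 0.29 (adjusted p = 0.0233) and the carnitine transporter family member OCT4 by 0.80 ± 0.21 (adjusted p = 0.0184). NRT2.5, a high-affinity nitrate transporter known from nitrogen-starved plants, was at 2.14, 2.14 and 2.14 in the ABA arrays, against 5.96, 4.27 and 6.30 in the control arrays. It was lower in each ABA array, with a change of -3.37 ± 0.44 (adjusted p = 3.81e-04). OCT1 had a difference of 2.57 ± 1.40 (adjusted p = 0.199, or 0.00252 with the block). The call of GTR1 was lost without ABA 1 or 2 or control 1 or 2 (adjusted p 0.0504 to 0.0984), and that of OCT4 without ABA 2 or control 1 or 2 (0.0624 to 0.0674). The carnitine, NRT1/PTR and nitrate transporters called higher numbered 3 without ABA 2 or control 1 or 2. The carnitine, NRT1/PTR and nitrate transporters called lower numbered 2 without ABA 3.

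Autophagy wraps parts of the cytoplasm in a double membrane and delivers them to the vacuole, and ATG8 is the small protein that coats that membrane. All 11 tested ATG8 and other autophagy genes had positive changes, from 0.24 to 2.23, 6 were called higher and none lower, with the block 10 were called, and without the arrays numbered 1 or those numbered 2 the count was 2 in each fit. ATG8H was at 10.82, 10.97 and 10.98 in the ABA arrays, against 8.5, 8.92 and 8.67 in the control arrays. The groups were separated by more than the range within either, and the change was 2.23 ± 0.18 (adjusted p = 1.91e-05). APG8A, the gene for ATG8a, was at 11.60, 11.50 and 11.31 in the ABA arrays, against 9.96, 9.84 and 9.50 in the control arrays. Its change was 1.70 ± 0.19 (adjusted p = 1.47e-04), and that of ATG8B was 1.70 ± 0.27 (adjusted p = 0.00142). Outside the ATG8 genes, ATG101 (listed as AT5G66930), part of the kinase complex that starts autophagy, rose by 1.29 ± 0.18 (adjusted p = 6.68e-04) and ATG3, the enzyme that attaches ATG8 to lipid, by 0.94 ± 0.18 (adjusted p = 0.00335). ATG8E rose by 0.85 ± 0.23 (adjusted p = 0.0218). ATG8D, ATG8C, APG8H and ATG8G were called only with the block (changes of 0.63, 0.60, 0.51 and 0.46) and ATG8F in neither fit (0.24 ± 0.19, adjusted p = 0.37). The median change was 0.85, against -0.09 over all tested probe sets, and 0.67, 0.79 and 0.83 within the arrays numbered 1, 2 and 3. With 1 array left out the number called ran from 5 to 7. The call of ATG8E was lost without ABA 1 or 2 (adjusted p 0.0724 to 0.0799).

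ESCRT proteins bend membranes inward to sort cargo for the vacuole. Of 13 tested ESCRT and vacuolar sorting genes 6 were called higher and none lower, or 7 and 1 with the block, and none was called without the arrays numbered 1 or those numbered 2. Positive changes were found for 12, and the lowest of the list was -1.25. VPS20.1, a subunit of the membrane-cutting ESCRT-III complex, was at 9.69, 9.63 and 9.52 in the ABA arrays, against 8.64, 8.76 and 7.87 in the control arrays. The groups were apart, and the change was 1.19 ± 0.25 (adjusted p = 0.00601). The ESCRT-III genes SNF7.2 and SNF7.1 rose by 1.19 ± 0.16 (adjusted p = 5.61e-04) and 1.04 ± 0.17 (adjusted p = 0.00178). VPS60.1 rose by 1.01 ± 0.27 (adjusted p = 0.0207). The list median was 0.60. Among secretion genes, of which 14 were tested, limma called none in either direction, with 2 at an unadjusted p under 0.05, both higher, and with 2 called higher with the block. VHA-A2, a subunit of the proton pump of the vacuole, rose by 0.97 ± 0.24 (adjusted p = 0.013), while its paralogues VHA-A3 and VHA-A1 had a difference of 0.08 ± 0.18 (adjusted p = 0.769) and 0.01 ± 0.21 (adjusted p = 0.976). The call of VPS60.1 was lost without ABA 1 or 2 or control 2 or 3 (adjusted p 0.0549 to 0.0874).

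Of 11 ubiquitin-conjugating enzymes, which hand ubiquitin to its target, 3 were called higher and none lower, or 6 and 1 with the block. UBC32, an enzyme that helps to clear misfolded proteins from the endoplasmic reticulum, was at 11.52, 11.38 and 11.07 in the ABA arrays, against 8.73, 8.65 and 8.46 in the control arrays. Its ABA arrays agreed closely and lay above the control arrays, with a change of 2.71 ± 0.25 (adjusted p = 5.07e-05). UBC30 rose by 1.2 ± 0.19 (adjusted p = 0.00151) and UBC19 by 0.58 ± 0.19 (adjusted p = 0.0389). Ubiquitin ligases of the U-box and RING types went both ways, with 3 of 16 called higher and 4 lower, or 4 and 5 with the block. PUB19, a U-box ligase known to dampen ABA responses, was at 10.07, 9.21 and 10.00 in the ABA arrays, against 2.32, 2.24 and 2.82 in the control arrays. It was high on every ABA array and near the floor on every control array, a change of 7.30 ± 0.44 (adjusted p = 2.81e-06). ATCRT1 and PUB43 rose by 1.44 ± 0.21 (adjusted p = 6.82e-04) and 1.32 ± 0.23 (adjusted p = 0.00221), ATL8 changed by -1.78 ± 0.57 (adjusted p = 0.0419) and MAC3B by -0.56 ± 0.17 (adjusted p = 0.0332), and the immune regulators PUB22 and PUB23 appear with the defence genes. In the list of 12 ubiquitin-specific proteases, which remove ubiquitin, UBP26 was the only call (0.76 ± 0.24, adjusted p = 0.0371), and with the block 2 were called higher and 1 lower. The call of UBC19 was lost without any ABA array or control 1 or 2 (adjusted p 0.0555 to 0.132), that of ATL8 without any ABA array or control 1 or 2 (0.0706 to 0.141), that of MAC3B without any ABA array or control 1 or 2 (0.052 to 0.117), and that of UBP26 without ABA 1 or 2 or control 2 or 3 (0.0772 to 0.136). The U-box and RING ubiquitin ligases called lower numbered 2 without any ABA array or control 1 or 2.

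Vacuolar and secreted proteases changed gene by gene. ALPHA-VPE, a vacuolar processing enzyme that matures other vacuolar proteins, was at 7.94, 7.46 and 8.39 in the ABA arrays, against 5.48, 5.50 and 5.77 in the control arrays. Every ABA array was above every control array and the change was 2.34 ± 0.28 (adjusted p = 2.42e-04), while BETA-VPE had a difference of 2.63 ± 1.29 (adjusted p = 0.158, or 9.54e-04 with the block) and GAMMA-VPE of -0.17 ± 0.23 (adjusted p = 0.626). Of 15 serine carboxypeptidase-like genes 4 were called higher, led by scpl20 (2.87 ± 0.53, adjusted p = 0.00307) and scpl48 (2.52 ± 0.43, adjusted p = 0.00205), and 2 lower (4 with the block), SCPL27 (-2.14 ± 0.26, adjusted p = 2.50e-04) and scpl50 (-0.99 ± 0.24, adjusted p = 0.0114). The other 2 higher calls were scpl28 (1.74) and SCPL49 (0.96). Subtilases are serine proteases of the cell wall and secretory path, with 2 of 8 listed genes called higher (3 with the block) and 1 lower. SBT4.12 was at 3.54, 3.35 and 4.85 in the ABA arrays, against 8.36, 8.60 and 8.40 in the control arrays. Its ABA values were all below the control values, a change of -4.54 ± 0.40 (adjusted p = 3.54e-05). SBTI1.1 rose by 2.39 ± 0.40 (adjusted p = 0.00172) and SBT3.5 by 2.70 ± 0.87 (adjusted p = 0.042). The list leaves out the subtilase genes AT4G21650 and AT4G20430, named by a locus tag alone, with changes of 4.08 and -1.65. The call of scpl28 was lost without any ABA array or control 1 or 2 (adjusted p 0.0941 to 0.156), that of SCPL49 without ABA 1 or 2 or control 2 or 3 (0.052 to 0.0717), and that of SBT3.5 without any ABA array or control 1 or 2 (0.0837 to 0.146). The serine carboxypeptidase-like proteins called higher numbered 2 without ABA 1 or 2 or control 2. The subtilases called higher numbered 1 without any ABA array or control 1 or 2.

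The strip plot of families sets the changes of all members of 16 lists side by side.

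**Figure D2:**
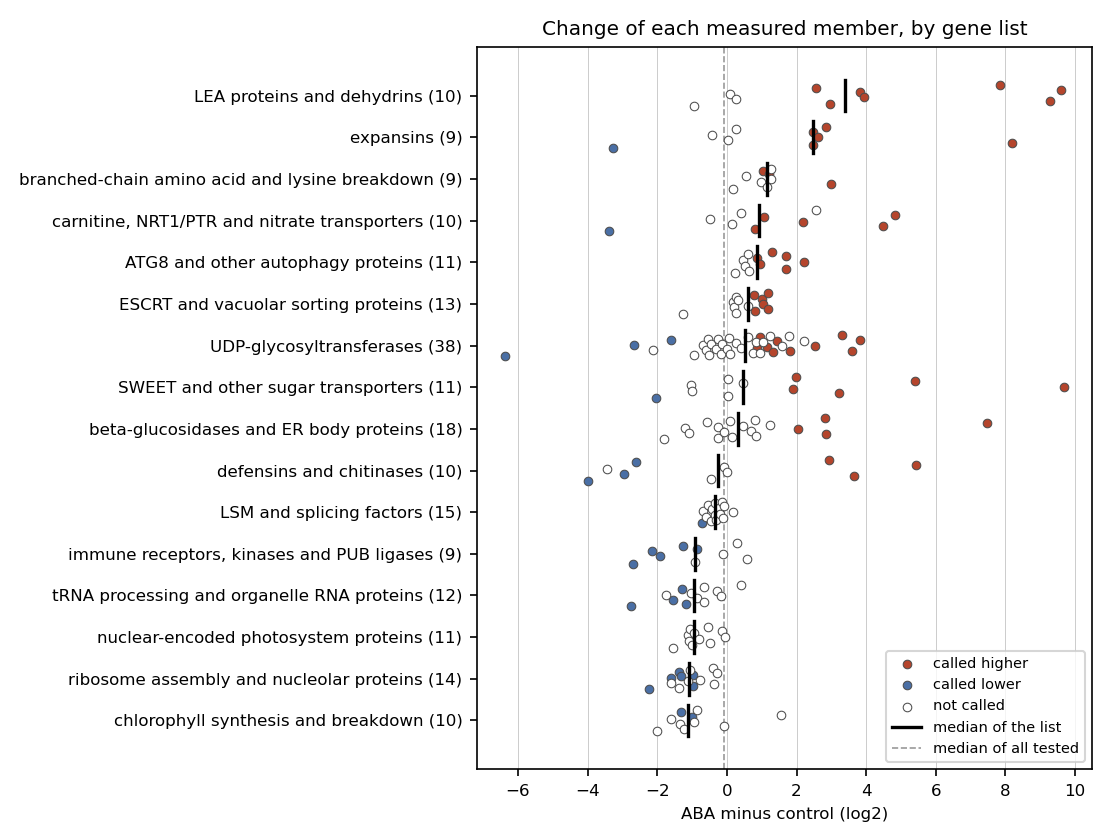
Change of each tested member (ABA minus control, log2, horizontal axis) in 16 lists, one per row with its number of members; red points were called higher, blue points called lower and white points not called, black bars are list medians and the dashed line is the median of all tested probe sets (-0.09). All ATG8 and autophagy members and all members of branched-chain amino acid and lysine breakdown lie above 0, and all nuclear-encoded photosystem and ribosome assembly members lie below 0. The 16 lists are a selection from 75, and members and lists were chosen with earlier results of these data known.

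Cell wall genes gave opposite changes within single families. Expansins loosen the wall without cutting it, and of 9 tested genes 5 were called higher and 1 lower, with a median of 2.46. EXPA16 was at 12.71, 12.55 and 11.31 in the ABA arrays, against 3.81, 5.14 and 3.04 in the control arrays. It was low in all control arrays and high in all ABA arrays, a change of 8.19 ± 1.03 (adjusted p = 3.07e-04). EXPA9 was at 3.88, 4.52 and 4.29 in the ABA arrays, against 7.4, 7.58 and 7.56 in the control arrays. This gene was lower in every ABA array, with a change of -3.28 ± 0.29 (adjusted p = 3.39e-05). The expansin-like genes EXLB1, EXLA2 and EXLA1 rose by 2.85 ± 0.44 (adjusted p = 0.00113), 2.46 ± 0.26 (adjusted p = 1.07e-04) and 2.61 ± 0.84 (adjusted p = 0.0406), and EXPA4 by 2.48 ± 0.78 (adjusted p = 0.0369). The root hair expansins EXPA7 and EXPA18 had a difference of 0.02 ± 0.55 (adjusted p = 0.985) and -0.43 ± 0.35 (adjusted p = 0.394), and EXLA3 of 0.25 ± 0.27 (adjusted p = 0.529). The median of the 9 within the arrays numbered 1, 2 and 3 was 2.59, 2.18 and -0.03. The call of EXLA1 was lost without ABA 1 or 2 or any control array (adjusted p 0.0715 to 0.121), and that of EXPA4 without ABA 1 or 2 or control 1 or 2 (0.11 to 0.135). The expansins called higher numbered 3 without ABA 1 or 2 or control 1 or 2.

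Enzymes that build and trim the wall gave scattered calls in both directions. XTH33, a xyloglucan endotransglucosylase, was at 2.75, 2.85 and 2.30 in the ABA arrays, against 5.57, 6.25 and 3.99 in the control arrays. It was lower in all ABA arrays, with a change of -2.64 ± 0.58 (adjusted p = 0.00762), and was the only call among 7 XTH genes, to which the block added XTH19 (1.28 ± 1.24, adjusted p = 0.48, or 0.014 with the block). Of 10 cellulose synthase-like, COBRA and GH9 genes CSLD2 rose by 1.2 ± 0.25 (adjusted p = 0.0054), while CSLA03, for a mannan synthase, changed by -1.50 ± 0.33 (adjusted p = 0.00754), COB, which orients cellulose deposition, by -0.84 ± 0.20 (adjusted p = 0.0103) and the endoglucanase-like GH9B7 by -1.15 ± 0.34 (adjusted p = 0.0289), and with the block 5 were called lower. In pectin and glycoprotein synthesis GAUT15 rose by 1.16 ± 0.19 (adjusted p = 0.00162), the pectin methylesterase ATPMEPCRD changed by -1.63 ± 0.28 (adjusted p = 0.00208) and XEG113, an arabinosyltransferase for extensins, by -1.13 ± 0.24 (adjusted p = 0.0064). Trichome birefringence-like proteins, which add acetyl groups to wall polymers, had 3 of 16 called each way (18.8%, beside 14.6% higher and 14.3% lower over all). They ran from TBL41 (2.12 ± 0.43, adjusted p = 0.00489) to TBL45 (-2.40 ± 0.42, adjusted p = 0.00246), and with the block 9 were called lower. The call of GH9B7 was lost without ABA 1 or 2 or control 2 or 3 (adjusted p 0.069 to 0.113). The trichome birefringence-like proteins called higher numbered 1 without ABA 1 or 2 or control 1. The trichome birefringence-like proteins called lower numbered 1 without ABA 1 or 2.

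Of 5 listed class III peroxidases, secreted enzymes that use hydrogen peroxide to cross-link the wall, 2 were called lower (3 with the block) and none higher. Prx37 was at 3.06, 2.97 and 7.23 in the ABA arrays, against 9.13, 9.51 and 11.38 in the control arrays. The array numbered 3 was the highest in either group, and the ABA arrays lay below the control arrays, with a change of -5.59 ± 1.18 (adjusted p = 0.00643). PRX71, listed as AT5G64120, was at 10.40, 10.13 and 9.16 in the ABA arrays, against 13.76, 13.35 and 12.91 in the control arrays. The ABA and control arrays did not overlap, and the change was -3.44 ± 0.59 (adjusted p = 0.00202). PRXR1 had a difference of -1.13 ± 0.47 (adjusted p = 0.0998, or 0.00304 with the block). The list leaves out AT4G08780, in a run of adjacent genes with Prx37, and AT5G64100 and AT5G64110, in a run with PRX71. These were also called lower, with changes of -3.67, -3.34 and -1.36, and are named by a locus tag alone. RALF peptides signal to the FERONIA receptor kinase about the state of the wall, and of 9 tested genes for RALF peptides and their receptors 1 was called higher and 3 lower. RALFL32 was at 11.53, 11.46 and 11.45 in the ABA arrays, against 9.02, 9.14 and 9.48 in the control arrays. Its change was 2.27 ± 0.18 (adjusted p = 1.97e-05), while RALFL34 changed by -1.23 ± 0.28 (adjusted p = 0.01), RALFL24 by -1.11 ± 0.20 (adjusted p = 0.00314) and RALFL22 by -0.75 ± 0.22 (adjusted p = 0.0277). The receptors themselves were not called, with -0.07 ± 0.18 (adjusted p = 0.817) for FER and 0.23 ± 0.64 (adjusted p = 0.818) for THE1. The call of RALFL22 was lost without any ABA array or control 2 or 3 (adjusted p 0.0505 to 0.105).

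Of 9 tubulins, which build microtubules, and their folding cofactors 3 were called lower (4 with the block) and none higher. TUB5 was at 9.01, 9.18 and 8.95 in the ABA arrays, against 10.17, 10.43 and 10.13 in the control arrays. The groups did not overlap and the change was -1.19 ± 0.17 (adjusted p = 6.85e-04), with -0.77 ± 0.19 (adjusted p = 0.0154) for TUB6 and -0.62 ± 0.17 (adjusted p = 0.024) for TUA6. Of 23 microtubule-associated genes 4 were called higher (5 with the block), SP1L2 (2.51 ± 0.59, adjusted p = 0.0108) and the TRM genes TRM18, TRM15 and TRM19 (1.91, 1.63 and 1.40), and 3 lower (6 with the block), IQD22 (-1.63 ± 0.23, adjusted p = 6.93e-04), IQD31 (-1.36) and IQD28 (-1.26). Actin-binding NET proteins gave 3 calls among 16 actin-associated genes, all higher (4 with the block), with NET2D at 2.21 ± 0.62 (adjusted p = 0.0245), NET4B at 0.73 and NET1D at 0.65. Among 12 histone, replication and cell cycle genes limma called 1, the histone chaperone ASF1B (-0.77 ± 0.23, adjusted p = 0.032), and with the block 1 was called higher and 5 lower. HIS1-3, a linker histone known from water stress, had a difference of 1.92 ± 0.83 (adjusted p = 0.109, or 0.00214 with the block). The call of TUB6 was lost without ABA 1 or 2 or control 2 (adjusted p 0.0523 to 0.0689), that of TUA6 without ABA 1 or 2 or control 3 (0.0612 to 0.076), that of IQD31 without ABA 1 or 2 or any control array (0.0682 to 0.145), and that of IQD28 without ABA 1 or 2 or control 1 or 2 (0.0513 to 0.0633). The call of NET2D was lost without any ABA array or control 1 or 2 (adjusted p 0.0575 to 0.0917), that of NET4B without ABA 2 (0.0585), that of NET1D without ABA 1 or 2 or control 1 (0.053 to 0.0753), and that of ASF1B without ABA 1 or 3 or control 1 or 2 (0.0648 to 0.124). The tubulins and tubulin-folding cofactors called lower numbered 1 without ABA 1 or 2. The microtubule-associated proteins called lower numbered 1 without ABA 1 or control 2.

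Detoxifying and conjugating enzymes were called in both directions. UDP-glycosyltransferases attach sugars to hormones and small molecules, and of 38 tested genes 10 were called higher and 3 lower, or 16 and 5 with the block, with a median change of 0.52. UGT76E12 was at 6.03, 5.81 and 5.90 in the ABA arrays, against 2.34, 2.32 and 2.32 in the control arrays. UGT76E11, its close relative by name, was at 8.45, 8.21 and 7.95 in the ABA arrays, against 4.64, 4.74 and 5.34 in the control arrays. In neither gene did the groups overlap, with changes of 3.59 ± 0.38 (adjusted p = 1.14e-04) and 3.30 ± 0.32 (adjusted p = 7.08e-05). UGT85A5 rose by 3.83 ± 1.06 (adjusted p = 0.0224) and UGT84A3 by 2.54 ± 0.67 (adjusted p = 0.018). UGT71C5, an enzyme that inactivates ABA by adding glucose, was at 7.04, 7.05 and 7.02 in the ABA arrays, against 8.76, 8.90 and 8.27 in the control arrays. It was lower in all ABA arrays, with a change of -1.61 ± 0.22 (adjusted p = 4.75e-04). UGT85A4 changed by -2.68 ± 0.72 (adjusted p = 0.0205), and UGT72E1, which acts on lignin precursors, by -6.38 ± 0.40 (adjusted p = 3.29e-06). The call of UGT85A5 was lost without ABA 1 or 2 or control 3 (adjusted p 0.0708 to 0.0831), that of UGT84A3 without ABA 1 or 2 or control 3 (0.0528 to 0.0761), and that of UGT85A4 without ABA 1 or 3 or control 1 or 2 (0.0566 to 0.0777). The UDP-glycosyltransferases called higher numbered 5 without ABA 1 and 6 without ABA 2.

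Glutathione transferases, with 1 of 10 called higher (3 with the block) and 2 lower, ran from GSTU22 (2.30 ± 0.32, adjusted p = 6.47e-04) to GSTU20 (-1.99 ± 0.58, adjusted p = 0.0288), with GSTU27 at -1.42 ± 0.45 (adjusted p = 0.0399). Of 12 CYP71 and other cytochrome P450 genes, most of them of unknown substrate, 2 were called higher and 4 lower (5 with the block). CYP71B22 was at 4.81, 4.54 and 5.07 in the ABA arrays, against 8.11, 8.39 and 7.45 in the control arrays. CYP718 was at 2.58, 3.37 and 4.87 in the ABA arrays, against 7.0, 7.33 and 5.98 in the control arrays. Both were lower in every ABA array, with changes of -3.17 ± 0.44 (adjusted p = 5.80e-04) and -3.16 ± 0.73 (adjusted p = 0.0102). CYP71B36 and CYP71B23 were also lower, with changes of -2.29 and -1.03, whereas CYP71B26 and CYP71B28 rose by 1.92 ± 0.42 (adjusted p = 0.00799) and 1.54 ± 0.27 (adjusted p = 0.00224). The call of GSTU20 was lost without any ABA array (adjusted p 0.0539 to 0.0984), that of GSTU27 without ABA 1 or 2 or any control array (0.0692 to 0.15), and that of CYP71B23 without any ABA array or control 1 or 2 (0.0557 to 0.0856).

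In glucosinolate metabolism, which makes the defence compounds typical of the cabbage family, 2 of 5 tested genes were called higher, AOP1 and the transporter GTR1 given above, and 1 lower, BCAT4. BCAT4 catalyses the first step from methionine to the aliphatic glucosinolates and was at 2.88, 2.27 and 2.32 in the ABA arrays, against 6.52, 7.35 and 8.66 in the control arrays. The ABA arrays lay near the bottom of the scale and the 3 control arrays were spread over more than 2 log2 units above it, with a change of -5.02 ± 0.43 (adjusted p = 3.05e-05). AOP1, a gene of the side-chain-modifying AOP family, was at 6.31, 6.11 and 5.42 in the ABA arrays, against 3.00, 3.20 and 3.08 in the control arrays. It was higher in each ABA array, by 2.86 ± 0.54 (adjusted p = 0.00364). In the phenylpropanoid pathway, which feeds lignin and coumarins, 1 of 13 was called higher (2 with the block) and 3 lower (4 with the block). CCR2, a cinnamoyl-CoA reductase, was at 6.45, 6.05 and 7.64 in the ABA arrays, against 2.48, 2.87 and 4.92 in the control arrays. Its groups did not overlap, with a change of 3.29 ± 0.82 (adjusted p = 0.0146). CCOAMT, an O-methyltransferase of the pathway, was at 3.15, 3.53 and 3.53 in the ABA arrays, against 7.97, 6.99 and 4.85 in the control arrays. The control arrays varied widely and stayed above the ABA arrays, with a change of -3.20 ± 0.77 (adjusted p = 0.0124). The scopoletin-forming enzyme F6'H1, listed as AT3G13610, changed by -4.95 ± 1.22 (adjusted p = 0.0134). The call of CCR2 was lost without control 1 or 2 (adjusted p 0.0548 to 0.0554), and that of AT3G13610 without ABA 1 or 2 (0.0555 to 0.0592).

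Immune genes were called lower or split. Of 9 immune receptors, kinases and PUB ligases none was called higher and 5 were called lower, and the 5 kept their calls with any 1 array left out. PUB22, a U-box ligase that restrains immune signalling, was at 6.46, 5.84 and 6.10 in the ABA arrays, against 9.63, 8.28 and 8.57 in the control arrays. The ABA arrays lay below the control arrays, and the change was -2.69 ± 0.46 (adjusted p = 0.00216). PSY1R, a receptor kinase for a sulfated growth peptide, was at 5.49, 5.98 and 5.75 in the ABA arrays, against 7.66, 7.50 and 7.84 in the control arrays. Its change was -1.93 ± 0.20 (adjusted p = 9.14e-05), also with no overlap. PUB23, BIK1 and EFR, a ligase, a kinase and the receptor for a bacterial elongation factor fragment, fell by 2.15, 1.28 and 0.87. PTI1-4, PUB24, PIA1 and B120 were not called (0.57, 0.29, -0.11 and -0.92).

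Defensins and chitinases, small antimicrobial proteins and enzymes that cut fungal walls, had 3 of 10 called higher and 3 lower (5 with the block). The chitinase gene listed as CHI was at 8.84, 8.76 and 11.02 in the ABA arrays, against 2.81, 2.59 and 6.90 in the control arrays. The other, ChiC, was at 12.46, 12.14 and 13.49 in the ABA arrays, against 8.45, 8.03 and 10.69 in the control arrays. Both were higher in all ABA arrays, and the array numbered 3 was the highest in either group, with changes of 5.44 ± 1.08 (adjusted p = 0.0047) and 3.64 ± 0.59 (adjusted p = 0.00161). The defensin PDF2.1 rose by 2.94 ± 0.33 (adjusted p = 1.47e-04). PDF1.2b, a defensin known to follow jasmonate and ethylene, was at 5.38, 5.2 and 6.14 in the ABA arrays, against 10.51, 10.23 and 7.94 in the control arrays. It was lower in every ABA array, while control 3 was the lowest control array, with a change of -3.99 ± 0.80 (adjusted p = 0.005), as was PDF2.5 (-2.61 ± 0.51, adjusted p = 0.00404). Its close copy PDF1.2 changed by -2.97 ± 0.78 (adjusted p = 0.0178), and PDF1.4 by -3.43 ± 2.02 (adjusted p = 0.234, or 0.00665 with the block). PDF1.2 and PDF1.2b are near-identical, so their probe sets may share transcripts. The call of PDF1.2 was lost without ABA 1 or 2 or control 2 (adjusted p 0.0639 to 0.0765).

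Of 8 genes in a list for salicylic acid, cell death and defence 2 were called higher and 1 lower. AtS40-3, a regulator of leaf senescence, was at 8.29, 7.78 and 6.86 in the ABA arrays, against 3.70, 3.4 and 2.48 in the control arrays. Its ABA arrays were well above the control arrays, by 4.45 ± 0.57 (adjusted p = 3.52e-04). PR-1-LIKE was at 3.59, 2.70 and 2.68 in the ABA arrays, against 6.76, 6.76 and 5.56 in the control arrays. It was lower throughout, with a change of -3.37 ± 0.37 (adjusted p = 1.39e-04). MMP, a matrix metalloproteinase, rose by 2.78 ± 0.89 (adjusted p = 0.04). With the block 4 of the 8 were called lower, the 3 added being SGT1A (-1.98 ± 0.71, adjusted p = 0.0621, or 1.88e-04 with the block), OSM34 and GRX480. Beta-glucosidases release active compounds from their sugar conjugates, and of 18 tested with the proteins of ER bodies 4 were called higher and none lower. BGLU24 was at 9.90, 9.62 and 10.65 in the ABA arrays, against 2.64, 2.64 and 2.5 in the control arrays. It was near the floor in control and high on each ABA array, a change of 7.46 ± 0.54 (adjusted p = 1.04e-05). BGLU16 rose by 2.05 ± 0.40 (adjusted p = 0.00412), BGLU45 by 2.84 ± 0.83 (adjusted p = 0.0277) and BGLU40 by 2.83 ± 0.71 (adjusted p = 0.0143). With the block 7 were called higher and 2 lower. The call of MMP was lost without any ABA array or control 1 or 2 (adjusted p 0.072 to 0.127), that of BGLU45 without ABA 1 or 2 or control 1 or 3 (0.0729 to 0.104), and that of BGLU40 without ABA 1 or 2 (0.0588 to 0.0595). The beta-glucosidases and ER body proteins called higher numbered 2 without ABA 1 or 2.

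Without the block, the lists of calmodulin-like proteins and of glutamate receptor-like channels and cation exchangers had calls of lower only. These were 1 of 8 (12.5%) and 3 of 8 (37.5%), beside 14.3% of all tested probe sets. Of 8 calmodulin-like genes the 1 call was CML42, a calcium sensor, at 4.27, 4.84 and 3.67 in the ABA arrays, against 8.93, 9.05 and 7.71 in the control arrays. Every ABA array was lower, and the change was -4.30 ± 0.65 (adjusted p = 0.00101). CHX16, a cation exchanger family member, was at 5.66, 3.96 and 6.04 in the ABA arrays, against 9.79, 9.48 and 9.96 in the control arrays. It too was lower in all ABA arrays, with a change of -4.52 ± 0.44 (adjusted p = 7.33e-05). In the same list of 8 glutamate receptor-like channels and cation exchangers, CHX20, an exchanger of guard cells, changed by -1.18 ± 0.32 (adjusted p = 0.0207) and GLR2.7 by -1.64 ± 0.54 (adjusted p = 0.0453), and the block added ATGLR1.2 (1.67 ± 1.06, adjusted p = 0.272, or 0.00336 with the block). WNK9, a protein kinase, was at 6.19, 6.27 and 7.0 in the ABA arrays, against 3.98, 3.78 and 2.84 in the control arrays. This was the highest change among 15 kinases, phosphatases and SnRK subunits, 2.95 ± 0.34 (adjusted p = 1.79e-04), of which 3 were called higher (5 with the block), WNK7 (0.93) and the phosphatase inhibitor I-2 (0.76) being the others. TOPP7, a type 1 phosphatase, and the kinase WAG2 were called lower (-1.15 and -1.30). Of 15 thioredoxins and glutaredoxins limma called none, with 1 at an unadjusted p under 0.05, higher. With the block 1 was called higher and 3 lower. The call of CHX20 was lost without ABA 3 or control 1 (adjusted p 0.0535 to 0.0739), that of GLR2.7 without ABA 1 or 2 or control 1 or 3 (0.0702 to 0.161), that of WNK7 without ABA 2 (0.0579), and that of I-2 without ABA 1 or 2 or control 2 (0.0556 to 0.0783). The call of TOPP7 was lost without ABA 2 or control 1 or 2 (adjusted p 0.0512 to 0.0612), and that of WAG2 without ABA 1 or 2 or control 1 or 3 (0.0579 to 0.0937). The glutamate receptor-like channels and cation exchangers called lower numbered 1 without control 1.

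Transcription factor families gave calls in both directions, many of them near the shares over all tested probe sets (14.6% higher and 14.3% lower). Of 15 bHLH factors 3 were called higher and 2 lower (5 with the block), and of 15 bZIP factors 2 higher (3 with the block) and 1 lower. Of 7 MADS-box factors 2 were called higher and 1 lower (2 with the block), and of 6 WRKY factors 1 and 3. PYE, a bHLH factor of the iron deficiency response, was at 7.30, 6.97 and 6.73 in the ABA arrays, against 5.17, 5.06 and 5.2 in the control arrays. The groups did not overlap, with a change of 1.86 ± 0.28 (adjusted p = 8.98e-04). BPEp, a bHLH factor that limits petal cell size, rose by 1.41 ± 0.20 (adjusted p = 6.11e-04) and UPB1, which sets peroxidase levels in the root tip, by 1.56 ± 0.38 (adjusted p = 0.0127). MYC4, a jasmonate-responsive bHLH factor, changed by -1.70 ± 0.47 (adjusted p = 0.0218) and LHW by -0.63 ± 0.19 (adjusted p = 0.0337). WRKY47 was at 4.45, 4.42 and 4.35 in the ABA arrays, against 8.19, 8.13 and 7.78 in the control arrays. Each ABA array was lower, and the change was -3.63 ± 0.34 (adjusted p = 5.07e-05), whereas WRKY6 rose by 1.05 ± 0.31 (adjusted p = 0.0307). WRKY22 and WRKY53, both known from defence and leaf senescence, changed by -2.15 ± 0.71 (adjusted p = 0.0461) and -2.23 ± 0.68 (adjusted p = 0.0328), and for WRKY53 the groups overlapped. In the bZIP family bZIP58 rose by 1.95 ± 0.29 (adjusted p = 9.61e-04), BZIP24 by 1.43 ± 0.43 (adjusted p = 0.0323), and BZIP61 changed by -2.14 ± 0.22 (adjusted p = 8.36e-05). The AP2-type factor tny and the YABBY factor YAB5 were called lower (-2.63 and -2.22) and the MYB-like RL2 higher (1.08). The call of UPB1 was lost without ABA 1 (adjusted p 0.0548), that of MYC4 without ABA 1 or 2 or control 2 (0.0747 to 0.0874), that of LHW without ABA 1 or 2 or control 2 or 3 (0.0732 to 0.132), and that of WRKY6 without any ABA array or control 2 or 3 (0.0564 to 0.112). The call of WRKY22 was lost without ABA 1 or 3 or any control array (adjusted p 0.0643 to 0.138), that of WRKY53 without ABA 1 or 2 or control 1 or 3 (0.0948 to 0.125), that of BZIP24 without ABA 1 or 2 or any control array (0.057 to 0.118), and that of YAB5 without any ABA array or control 1 or 2 (0.0587 to 0.0832). The WRKY factors called lower numbered 1 without ABA 1 or control 1 or 3. The MADS-box factors called higher numbered 0 without ABA 1 or 2 or control 2 and 1 without ABA 3 or control 1 or 3. The bZIP factors called higher numbered 1 without ABA 1 or 2 or any control array.

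In the lists for other hormones and for light, no gene was called higher. Of 5 genes of gibberellin perception 1 was called, SPY, a negative regulator of gibberellin signalling (-0.65 ± 0.16, adjusted p = 0.0133), and the receptors GID1A, GID1B and GID1C were not called, with differences of -0.30, 0.45 and 0.42, though GID1B was with the block. Of 6 auxin genes WAG2 alone was called (-1.30 ± 0.36, adjusted p = 0.0227), and GH3.17, an enzyme that conjugates auxin, had a difference of 1.89 ± 0.69 (adjusted p = 0.0645, or 0.00666 with the block). Of 12 genes of jasmonate, ethylene and brassinosteroid 2 were called lower (3 with the block), MYC4 and BAT1, an acyltransferase that acts on brassinosteroids (-1.76 ± 0.53, adjusted p = 0.0327). EIN3, the main factor of ethylene signalling, and the jasmonate factor MYC3 had a difference of 0.01 ± 0.17 (adjusted p = 0.964) and 0.07 ± 0.24 (adjusted p = 0.854). In the list of 11 light and clock regulators 1 was called, or 2 each way with the block. The 1 call was FY (-0.82 ± 0.23, limma adjusted p = 0.0261), a gene of flowering time and not itself of light or the clock. The clock gene GI had a difference of -0.27 ± 0.24 (limma adjusted p = 0.421). The call of SPY was lost without ABA 1 or control 1 (adjusted p 0.0514 to 0.0551), that of WAG2 without ABA 1 or 2 or control 1 or 3 (0.0579 to 0.0937), that of BAT1 without any ABA array or control 3 (0.0508 to 0.0978), and that of FY without ABA 1 or 3 or control 2 or 3 (0.0578 to 0.0953). The jasmonate, ethylene and brassinosteroid genes called lower numbered 0 without ABA 1 or 2 and 1 without ABA 3 or control 2.

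Nuclear genes for the photosynthetic apparatus had mostly negative changes, and few passed the test. All 11 tested photosystem genes encoded in the nucleus had negative changes, from -1.56 to -0.06, with a median of -0.96 and of -1.12, -0.89 and -0.79 within the arrays numbered 1, 2 and 3. None was called by limma and none reached an unadjusted p under 0.05, while 3 were called lower with the block and 8 without the arrays numbered 3. LHCB4.2, an antenna protein of photosystem II, was at 11.19, 11.17 and 10.61 in the ABA arrays, against 12.34, 12.06 and 11.45 in the control arrays. PSBY, a small photosystem II protein, was at 10.94, 11.10 and 10.94 in the ABA arrays, against 12.12, 12.23 and 11.94 in the control arrays. Within each number the ABA array lay below its control array for both genes, and the changes were -0.96 ± 0.74 (adjusted p = 0.369) and -1.11 ± 0.59 (adjusted p = 0.19). LIL3:1, a protein that anchors chlorophyll synthesis enzymes, had a difference of -1.56 ± 0.76 (adjusted p = 0.155, or 0.0422 with the block). Of 20 nuclear genes for NDH, electron flow and assembly 18 had negative changes and 3 were called lower, or with the block 1 higher and 9 lower. OTP81, a factor that edits plastid RNA, was at 2.41, 2.61 and 2.62 in the ABA arrays, against 5.33, 5.97 and 4.57 in the control arrays. It was lower in each ABA array, with a change of -2.75 ± 0.51 (adjusted p = 0.0033), with -2.37 ± 0.62 (adjusted p = 0.0177) for the NDH subunit NdhN and -2.18 ± 0.59 (adjusted p = 0.0204) for CRR42. The call of NdhN was lost without ABA 1 or control 1 or 2 (adjusted p 0.0515 to 0.0662), and that of CRR42 without ABA 1 or 2 or control 1 or 2 (0.0625 to 0.0707). The nuclear-encoded NDH, electron flow and assembly proteins called lower numbered 1 without ABA 1 or control 1 or 2.

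Of 10 genes in the chlorophyll list 9 had negative changes, 2 were called lower, and with the block 1 was called higher and 7 lower. GSA1, an early enzyme of the pathway, was at 8.71, 8.94 and 8.65 in the ABA arrays, against 9.70, 9.85 and 9.72 in the control arrays. The groups did not overlap, and the change was -1.0 ± 0.17 (adjusted p = 0.00175). SIRB, an enzyme of the side branch that makes sirohaem and not chlorophyll, changed by -1.31 ± 0.21 (limma adjusted p = 0.00152). CHLI2, a subunit of magnesium chelatase, CHLM, the next methyltransferase, and HEMB1 had a difference of -2.0 ± 0.88 (adjusted p = 0.115, or 0.0114 with the block), -1.60 ± 0.91 (adjusted p = 0.222, or 0.00575 with the block) and -1.24 ± 0.44 (adjusted p = 0.0573, or 0.00132 with the block). NOL, which starts the breakdown of chlorophyll b, had a difference of 1.55 ± 0.99 (adjusted p = 0.276, or 0.0232 with the block), the only positive one. PORB, a light-dependent reductase, had a difference of -1.35 ± 0.72 (adjusted p = 0.19). The 4 Calvin cycle and photorespiration genes lay between -1.67 and -0.85 and were not called by limma, with 1 at an unadjusted p under 0.05. The lowest 2 were -1.67 ± 1.00 (adjusted p = 0.242) for SBPASE and -1.60 ± 0.67 (adjusted p = 0.103, or 0.0282 with the block) for PRK, which regenerate the carbon dioxide acceptor.

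Genes encoded in the plastid itself were not called. Of 26 plastid photosystem and cytochrome genes none was called, with none at an unadjusted p under 0.05, and the median change was -0.09, equal to that of all tested probe sets at this rounding. Of 15 plastid NDH and ATP synthase genes none was called and none reached an unadjusted p under 0.05, while 1 was called lower with the block, and the median was -0.25. The 19 plastid genes for ribosomal proteins and RNA polymerase had a median of -0.45 with 18 negative, none called and 1 at an unadjusted p under 0.05, and none of them was called with the block either. The 7 tested mitochondrial genes had a median of 0.02, lay between -0.19 and 0.40, and none reached an unadjusted p under 0.05. These transcripts mostly lack a poly(A) tail, so how far they were labelled on the array is unknown. The difference between the nuclear and the plastid lists was not tested.

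**Figure D3:**
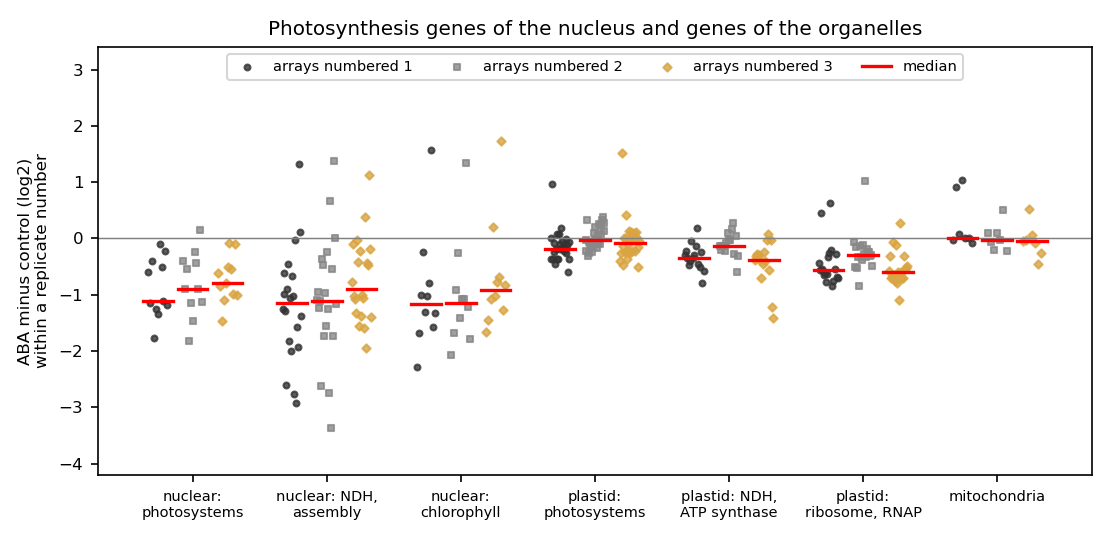
Change within each array number (ABA minus control, log2, vertical axis) for each member of 7 lists of nuclear, plastid and mitochondrial genes, with red bars for the list medians. The nuclear photosystem medians are -1.12, -0.89 and -0.79 for the numbers 1, 2 and 3, and the plastid photosystem and mitochondrial medians over all arrays are -0.09 and 0.02.

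Genes for ribosome assembly lay below zero without exception. All 14 tested genes for ribosome assembly and nucleolar proteins had negative changes, from -2.25 to -0.30, 6 were called lower and none higher, and with the block 11 were called lower. RH39, a helicase that matures plastid ribosomal RNA, was at 4.98, 5.17 and 5.58 in the ABA arrays, against 7.42, 7.44 and 7.63 in the control arrays. DIM1A, which methylates ribosomal RNA, was at 6.93, 7.04 and 7.57 in the ABA arrays, against 8.60, 8.85 and 8.23 in the control arrays. In both the ABA arrays were below the control arrays, with a change of -2.25 ± 0.27 (adjusted p = 2.45e-04) and -1.38 ± 0.28 (adjusted p = 0.00478). NRPA2, a large subunit of RNA polymerase I, which transcribes the ribosomal RNA genes, changed by -1.61 ± 0.35 (adjusted p = 0.00795), and the helicase RH57, listed as AT3G09720, by -1.31 ± 0.35 (adjusted p = 0.0203). The list median was -1.10, and -1.22, -1.22 and -0.67 within the arrays numbered 1, 2 and 3. The call of AT3G09720 was lost without ABA 1 or 2 or control 1 or 3 (adjusted p 0.055 to 0.0813). The ribosome assembly and nucleolar proteins called lower numbered 3 without ABA 1 or 2.

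Of 12 tRNA-processing and organelle RNA genes 11 had negative changes and 4 were called lower (6 with the block). Besides OTP81 these were CAF1, a splicing factor for chloroplast introns (-1.55 ± 0.38, adjusted p = 0.0132), and the tRNA-maturing nucleases TRZ3 (-1.28 ± 0.42, adjusted p = 0.0439) and TRZ4 (-1.18 ± 0.37, adjusted p = 0.0369). Of 14 nuclear RNA polymerase and Mediator subunits 1 was called higher and 4 lower (5 with the block). NRPE7, a subunit of the silencing polymerase V, was at 4.00, 3.94 and 4.21 in the ABA arrays, against 5.4, 6.2 and 5.29 in the control arrays. It was lower in each ABA array, with a change of -1.58 ± 0.32 (adjusted p = 0.00553), and NRPB9B, NRPB12 and MED9 changed by -1.75 ± 0.44 (adjusted p = 0.0155), -1.06 ± 0.34 (adjusted p = 0.0424) and 0.54 ± 0.18 (adjusted p = 0.048). Both calls among 13 chromatin remodelling genes were lower, CHR23 (-1.28 ± 0.27, adjusted p = 0.00633) and BSH (-0.95 ± 0.16, adjusted p = 0.0017), and the block added 2 calls of higher. The 15 LSM and splicing factors had 14 negative changes of small size, with a median of -0.35, and 1 call, LSM1B (-0.70 ± 0.23, adjusted p = 0.0434), or 3 with the block. The call of CAF1 was lost without ABA 1 or control 2 (adjusted p 0.0537 to 0.0586), that of TRZ3 without any ABA array or any control array (0.0632 to 0.132), that of TRZ4 without ABA 1 or 2 or control 1 or 2 (0.0756 to 0.139), and that of NRPB9B without ABA 1 or 2 (0.0615). The call of NRPB12 was lost without ABA 1 or 2 or any control array (adjusted p 0.0819 to 0.154), that of MED9 without ABA 1 or 2 or any control array (0.0569 to 0.171), and that of LSM1B without ABA 1 or 2 or any control array (0.0788 to 0.15). The tRNA processing and organelle RNA proteins called lower numbered 1 without ABA 1 or control 2 and 2 without ABA 2 or control 1. The nuclear RNA polymerase and Mediator subunits called lower numbered 2 without ABA 1 or 2.

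Nutrient genes gave isolated changes. Of 12 sulfur and methionine genes 2 were called higher and 1 lower, or 4 and 2 with the block. STR18, a sulfurtransferase, was at 12.28, 12.05 and 12.15 in the ABA arrays, against 9.98, 9.53 and 9.93 in the control arrays. Its ABA arrays were all higher, by 2.35 ± 0.17 (adjusted p = 1.00e-05), and OASA2, a gene of the cysteine synthase family, rose by 1.71 ± 0.49 (adjusted p = 0.0262). SIR, the sulfite reductase, changed by -2.11 ± 0.60 (adjusted p = 0.0258). Methionine gamma-lyase MGL had a difference of 1.58 ± 0.66 (adjusted p = 0.101, or 0.00789 with the block). Of 9 iron and metal genes PYE and the manganese transporter MTP11 (1.45 ± 0.35, adjusted p = 0.0129) were called higher and SUFE2, of iron-sulfur cluster assembly, lower (-2.02 ± 0.67, adjusted p = 0.0463), with 2 called lower with the block. The iron factors ILR3, bHLH104 and bHLH121 were not called, with differences of -0.01, -0.10 and -0.24. The call of OASA2 was lost without ABA 1 or 2 or control 3 (adjusted p 0.0792 to 0.0962), that of SIR without ABA 1 or 2 or control 2 or 3 (0.0572 to 0.101), that of MTP11 without ABA 1 or 2 (0.0533 to 0.0577), and that of SUFE2 without ABA 1 or 2 or any control array (0.05 to 0.173).

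The counts of the lists described above moved with the arrays numbered 3. Without those 4 arrays, 3717 of the 14401 tested probe sets were called higher and 4647 lower. The totals were 501 and 209 without those numbered 1, and 529 and 196 without those numbered 2. List counts from different fits thus stand against different backgrounds. With the 4 arrays numbered 3 left out, 8 of 10 LEA and dehydrin genes and 9 of 11 autophagy genes were called higher. So were 8 of 13 ESCRT genes, 7 of 11 sugar transporters and 8 of 9 genes of branched-chain amino acid breakdown. The same held for 6 of 10 nitrogen transporters, 6 of 9 expansins and 19 of 38 UDP-glycosyltransferases. In the same fit 6 of 9 immune receptors and ligases and 13 of 14 ribosome assembly genes were called lower. So were 8 of 10 chlorophyll genes and 14 of 20 genes for NDH, electron flow and assembly. With the arrays numbered 1 left out, the lists with at least 2 calls higher among these were the LEA and dehydrin genes (6), sugar transporters (4), UDP-glycosyltransferases (3), autophagy genes (2), nitrogen transporters (2) and expansins (2), and no list had more than 1 call lower. With those numbered 2 left out the counts called higher were 7 LEA and dehydrin genes, 4 UDP-glycosyltransferases, 3 sugar transporters and 2 each of autophagy genes, nitrogen transporters and expansins, and the immune list, with 2, alone had more than 1 call lower.

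The same ABA contrast was measured again in seedlings that also had DFPM, on 6 arrays that share none with the comparison above. There 8.04% of the tested probe sets were called higher and 6.19% lower. The fit gave both contrasts 1 shared estimate of the spread per probe set, so the 2 sets of calls are not independent. Fitted to those 6 arrays alone, 582 were called higher and 280 lower, in place of 1158 and 891. Of the 2099 probe sets called higher by ABA alone 97.3% had a positive change in ABA+DFPM minus DFPM and 1044 (49.7%) were called higher, and 90.2% of those called higher with DFPM were also called without. Of the 2066 called lower 97.5% had a negative change and 702 (34%) were called lower, with 78.8% of the calls with DFPM made also without. In each direction 1 probe set was called the other way. The changes were also set against each other over the tested probe sets, which are no independent replicates and were normalized in 1 table, and the 2 sets of changes had a Pearson r of 0.88 and a Spearman rho of 0.85. The median change of the called probe sets was 1.07 and -0.87 with DFPM, beside 1.61 and -1.30 without, where the choice of the probe sets on these values fixes a part of the gap.

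In this second measurement the calls were again mostly in the direction seen without DFPM. LEA and dehydrin genes had 6 of 10 called higher with DFPM, autophagy genes 6 of 11, ESCRT genes 4 of 13, sugar transporters 4 of 11 with 1 lower, nitrogen transporters 4 of 10, ubiquitin-conjugating enzymes 3 of 11 and beta-glucosidases 3 of 18. Immune receptors and ligases had 4 of 9 called lower, chlorophyll genes 2 of 10 and ribosome assembly genes 2 of 14. Of the 9 expansins 1 was called each way, with a median change of 0.07, beside 2.46 without DFPM. Of the 9 genes of branched-chain amino acid breakdown 1 was called higher. UDP-glycosyltransferases had 5 of 38 called higher and 2 lower, with a median of 0.10, beside 0.52 without DFPM. Single genes stood at 6.56 in ABA+DFPM minus DFPM for LEA18, 3.83 for SWEET4, 3.81 for AMY1, 1.5 for ATG8H, 2.28 for UBC32, 6.41 for EXPA16, -2.39 for CML42 and -3.68 for SBT4.12.

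The difference between the ABA effect with DFPM and that without was called for 54 probe sets (0.375%), or for 202 with the block. The signed change was lower with DFPM in 32 of the 54 and higher in 22. These counts do not give its size, since a decrease that shrank with DFPM counts as higher. BCAT4, at -5.02 without DFPM and -0.11 with it, is among the 22, and so is AT2G43580, at 0.02 and 2.61. Among the listed genes 1 passed, BCAT4, whose decrease was called without DFPM only. EXLA2, COR15A and ATHSP22.0 came next, with adjusted p of 0.0550, 0.0641 and 0.0661. Genes outside the lists passed too, among them the subtilase genes AT4G21650 (4.08 without DFPM and 0.18 with it, limma adjusted p = 5.26e-04) and AT4G20430 (-1.65 and 0.05, adjusted p = 0.0121).

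**Figure D4:**
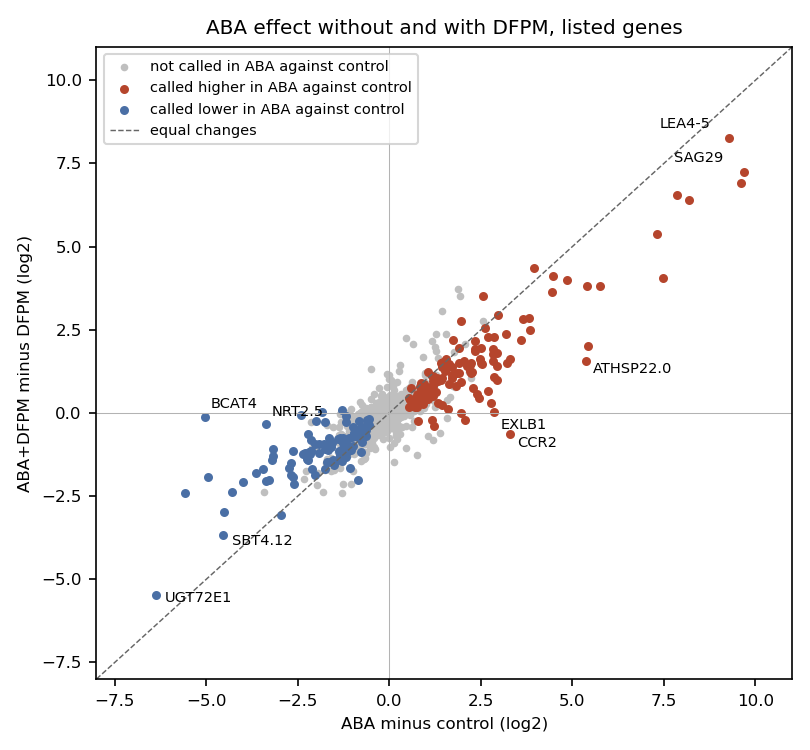
Change of each listed gene by ABA alone (ABA minus control, log2, horizontal axis) and in the presence of DFPM (ABA+DFPM minus DFPM, log2, vertical axis), with a dashed line where both are equal. Most of the large changes lie in the same direction on both axes, and BCAT4 lies at -5.02 on the horizontal and -0.11 on the vertical axis.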

How the data were processed

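RNA of 12 whole-seedling samples, 3 per group, was extracted with Trizol and RNeasy columns and hybridised to Affymetrix ATH1 arrays, per the labels' protocols. The deposited values are log2 levels per probe set that the authors made with GCRMA and affy, per the submitters' processing notes. Neither their versions nor their settings are given in the sources used. The deposited normalization was kept.

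The 64 control probe sets were left out, and probe sets with at least 3 arrays at log2 4 were tested, 14401 of 22746. Groups were compared in limma 3.58.1 under R 4.3.3 (lmFit and eBayes, all 12 arrays, 8 residual degrees of freedom, no covariate), two-sided, with Benjamini-Hochberg adjustment over all tested probe sets and calls at an adjusted p under 0.05. The contrasts were ABA minus control, ABA+DFPM minus DFPM and their difference. The fit was tested on simulated data first. Tables were made with pandas 2.3.3 and numpy 2.4.6 under Python 3.11.15, and figures with matplotlib 3.10.9.

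Replicate numbers were taken to pair arrays, because deviations from group means correlated between arrays of one number in all 18 pairs of groups and numbers (r from 0.43 to 0.80), and what a number stands for is not in the labels. Genes were named by the platform table given, with symbols updated through RefSeq (TAIR10.1). Of the tested probe sets 7705 named 1 gene, 310 several and 6386 none here, and 1110 had a name beyond the locus tag. Probe sets with no name took part in every test, and their genes stay unnamed.

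The 75 lists, made from symbols and annotation text, hold 829 genes. They may leave out members of a family that are named here by a locus tag alone. The members and lists were chosen with earlier results of these data known. The genes named were drawn from, per list, up to 4 highest and 4 lowest called changes with groups that do not overlap, any member of a list of at most 12, and the 10 highest and 10 lowest overall. No list was tested as a set. Alternatives were the block, other filters, quantile normalization, a trended prior, a minimum change, the compared arrays alone, arrays left out, and numbers 1 and 2 averaged.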

Additional observations from a re-analysis of the deposited data

Results flagged for a closer look

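The ABA effect with DFPM differed from that without, by a test of the difference itself, for 54 probe sets, 27 of which name 1 gene. Of these 27 genes 2 are in the lists or among the 10 highest and 10 lowest changes, and they are given here. BCAT4, of glucosinolate synthesis, was at 2.15, 2.14 and 2.15 in the ABA+DFPM arrays, against 2.28, 2.15 and 2.34 in the DFPM arrays. All 6 of these lie near the floor of the scale, as the ABA arrays do, and the 3 control arrays alone are well above it. Its ABA effect was -0.11 ± 0.43 with DFPM and -5.02 ± 0.43 without, a difference of 4.91 ± 0.61 (limma adjusted p = 0.00679, or 0.00838 with the block). AT3G17520, whose role is not given here, was at 9.42, 9.32 and 8.60 in the ABA+DFPM arrays, against 2.21, 2.44 and 2.15 in the DFPM arrays. Without DFPM it was at 11.69, 11.32 and 11.65 in the ABA arrays, against 2.17, 2.15 and 2.15 in the control arrays. ABA raised it in both settings, by 6.85 ± 0.23 with DFPM and 9.40 ± 0.23 without, a difference of -2.55 ± 0.32 (limma adjusted p = 0.00706, or 0.00676 with the block). Groups of 3 arrays were not searched for single outlying values.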

How the results depend on the processing

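With the replicate block in the fit the calls for ABA alone numbered 3181 higher and 3801 lower, against 2099 and 2066 without it, and those for ABA with DFPM 2331 and 2738, against 1158 and 891. The block ended the call of none of the 235 named genes that had one. Leaving out arrays gave 501 to 3717 called higher and 196 to 4647 lower for ABA alone, and 119 to 3109 higher and 19 to 4255 lower with DFPM, where the lowest and highest counts come from leaving out all arrays of one number. With 1 ABA or control array left out, the counts for ABA alone ran from 1409 to 2063 higher and from 993 to 2135 lower; the lowest lower counts were 993 without ABA 1, 1148 without ABA 2 and 1188 without control 2. Fits to the compared arrays alone gave 582 higher and 280 lower with DFPM, and averaging numbers 1 and 2, with the block, gave 569 and 244. No result reversed its direction under any alternative run. For ABA alone the intensity trend, both filters, quantile normalization, the compared arrays alone, averaged numbers and the minimum change left both counts within 1.5 times. Of the 235 named genes 140 kept their call with any 1 array left out and 95 lost it at least once (highest adjusted p 0.173). Without the arrays numbered 1 the call was lost in 179 of them, without those numbered 2 in 178 and without those numbered 3 in 3. Without the filter 39 lost it, with averaged numbers 73, and with a minimum change of 1 log2 unit 41. The causes were not tested. Promoter motif shares were not run, since no promoter sequence was used here. Probe sets near the floor of the scale have compressed changes, and with 3 arrays per group a difference that missed the threshold is not shown to be absent.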

Other observations

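Calls were read against level and position on the chromosome. Among probe sets with a mean level under log2 4, 10.4% were called higher and 16.6% lower, and among those between 8 and 10 the shares were 16.8% and 12.2%. Genes next to one another in the annotation were called alike at close to the share of all genes: 15.8% of the neighbours of genes called higher were themselves called higher, against 14.3% of the genes with a tested neighbour, and 16.1% of the neighbours of genes called lower were called lower, against 13.3%. Runs of 3 adjacent genes called alike numbered 2 higher and 7 lower. One run holds AT2G29320, TRI (AT2G29330) and AT2G29340 on chromosome 2, with changes of -2.59, -1.08 and -2.75, chosen here after the values were seen. Tandem copies in such runs may share probes. Of 83 genes with over 1 tested probe set none had probe sets called in opposite directions by limma.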
